A study of Mus musculus with 6 samples.

Results

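The enzymes that cross-link collagen were followed as 8 genes in mouse liver progenitor-like cells (LPCs): the lysyl oxidases Lox, Loxl1, Loxl2, Loxl3 and Loxl4, and the lysyl hydroxylases Plod1, Plod2 and Plod3. They were taken by symbol from the count tables of 6 RNA-seq libraries, and all 8 were present in every table, among 20218 gene symbols that the tables share. LPCs of 3 kinds were grown from C57BL/6 mice, with 2 libraries each. Bec_LPCs came from intrahepatic bile ducts of wild-type mice aged 6 to 8 weeks: pieces of duct were plated in matrigel, the cells that grew out were kept for 1 to 2 passages and sorted, and the series describes them as Epcam+. Hep_LPCs came from hepatocytes of ROSA26tdTomato mice given AAV8-TBG-Cre, a virus whose hepatocyte promoter turns the red reporter on in hepatocytes. For NPC_LPCs the starting cells were the non-parenchymal fraction of AlbCreERT/R26GFP livers, in which the albumin promoter drives the inducible Cre. Mice of these 2 lines were 8 weeks old in the growth protocol and 6 to 8 weeks in the labels. Every group was cultured in Transition and Expansion Medium, so none is fresh tissue. The labels do not say whether replicates came from separate mice or cultures. The p-values measure the spread between these libraries, which may be technical in Bec_LPCs. In NPC_LPCs the replicates differed as widely as in Hep_LPCs (chi-square values below), and the source of that spread was not tested. The 2 Hep_LPCs libraries differed in Y-linked genes (values below), so they were not repeats of 1 RNA sample.

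Lysyl hydroxylases work inside the endoplasmic reticulum, where they add a hydroxyl group to lysines of new procollagen chains and need iron, oxoglutarate and ascorbate. Lysyl oxidases are copper enzymes that are secreted; outside the cell they oxidise lysine and hydroxylysine side chains to aldehydes, which then condense into the covalent cross-links of collagen and elastin. In the liver these enzymes are best known from fibrosis, in which cross-linked collagen stiffens the scar.

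The libraries held 17575998 to 22985888 counts, and levels are given as CPM, a counts-per-million scale on the adjusted library size. On this scale 1 read was worth 0.0426 to 0.0595 CPM and 3 reads, the floor used for a gene with no reads, 0.128 to 0.179 CPM. The Bec_LPCs tables list other rows than the Hep_LPCs and NPC_LPCs tables, and the shared symbols held 94.8% of their counts, against 98.7% to 98.9% elsewhere; an effect of how the tables were made cannot be told apart from the source of the Bec_LPCs. Replicates differed by more than counting noise, with a chi-square per degree of freedom of 5.55 in Bec_LPCs, 93.0 in Hep_LPCs and 111 in NPC_LPCs. Hep_LPCs replicate 2 stood apart in 4 Y-linked genes, whose summed level was 0.179 CPM there and 199 to 308 CPM in the other libraries, so values without it are given below. Epcam, a biliary surface marker, was at 59.6 and 66.3 CPM in Bec_LPCs, 0.351 and 1.85 CPM in Hep_LPCs, and 0.116 and 0.613 CPM in NPC_LPCs. Albumin (Alb), which defines hepatocytes, did not exceed 2.40 CPM in any library. Of the other listed hepatocyte markers, Ttr, Apoa1, Serpina1a and Cps1 did not exceed 5.56 CPM. Apob, in contrast, was at 1517 to 4991 CPM over the libraries, Rbp4 at 22.7 to 519 CPM and Hnf4a at 28.9 to 263 CPM.

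**Figure D1:**
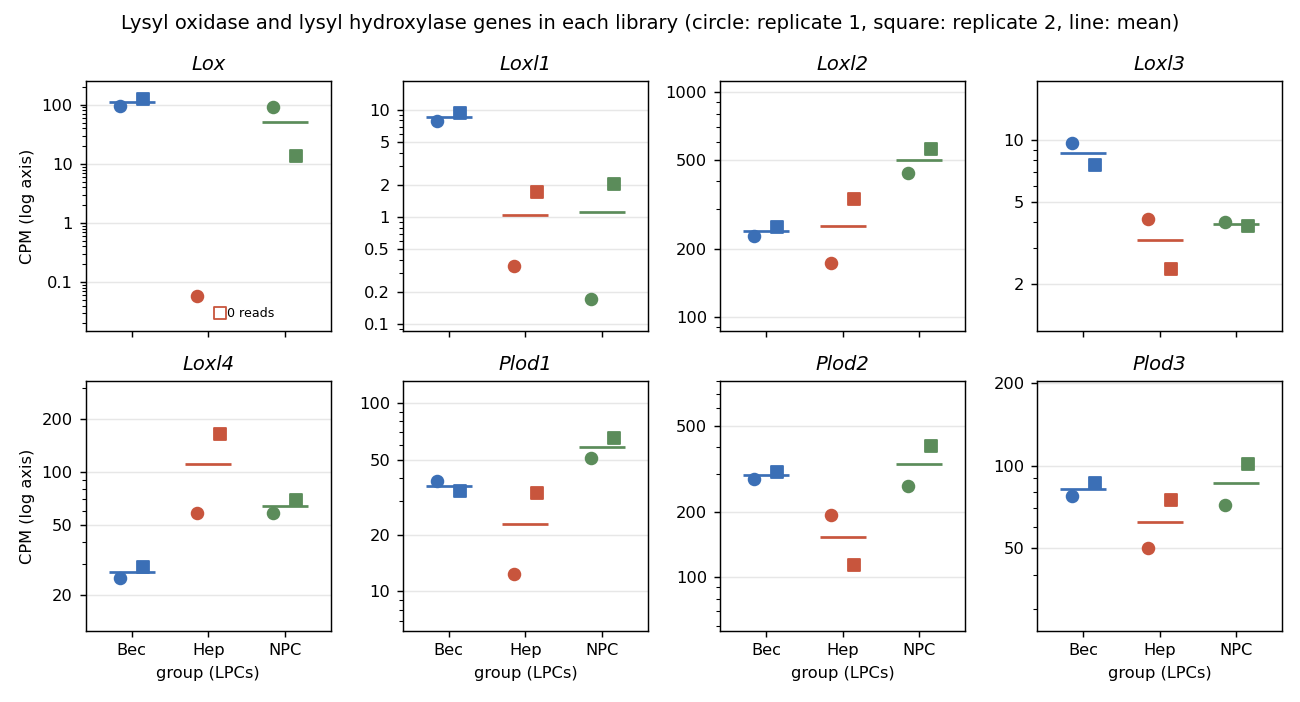
CPM of each of the 8 genes (log axis, a scale of its own for each gene) in the 2 libraries of Bec_LPCs, Hep_LPCs and NPC_LPCs; circles are replicate 1, squares replicate 2, lines group means, and an open symbol marks a library with 0 reads. Lox ran from 0 reads in a Hep_LPCs library to 126 CPM in a Bec_LPCs library, while Plod3 stayed between 49.97 and 102 CPM.

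Across the family the genes fell into 3 sets by the group with the highest mean, as the plot of CPM by library shows. Lox, Loxl1 and Loxl3 had their highest mean in Bec_LPCs, followed by NPC_LPCs and then Hep_LPCs. Loxl2 and the 3 hydroxylases were highest in NPC_LPCs, and Loxl4 alone had its highest mean in Hep_LPCs. The distance between the lowest and the highest library, on the log2 CPM scale, was 10.3 for Lox, 5.10 for Loxl1, 2.70 for Loxl4, 2.39 for Plod1, 1.98 for Loxl3, 1.82 for Plod2, 1.69 for Loxl2 and 1.03 for Plod3. The oxidases therefore held both the widest ranges and a narrow one, and the hydroxylases the narrowest.

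Genes can be compared with each other only per length, as RPKM, the CPM per kilobase of exon. On that scale Loxl2 was the leading oxidase in every library: its share of the summed RPKM of the 5 oxidases was 58.1% and 55.3% in Bec_LPCs, 68.2% and 60.8% in Hep_LPCs, and 70.5% and 83.3% in NPC_LPCs. What stood second differed. In Bec_LPCs it was Lox, with 27.6% and 31.3%. In Hep_LPCs it was Loxl4, with 29.7% and 38.2%, while Lox held 0.03% and 0%. In NPC_LPCs it was Lox in replicate 1, with 16.6% beside 12.2% for Loxl4, and Loxl4 in replicate 2, with 13.2% beside 2.25% for Lox. Loxl1 and Loxl3 were minor in every library, neither of them above 3.37%.

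The summed RPKM of the oxidases averaged 78.6 ± 7.86 in Bec_LPCs, 74.2 ± 38.6 in Hep_LPCs and 119 ± 7.10 in NPC_LPCs (SD, n = 2 each). For the hydroxylases it averaged 78.3 ± 3.74 in Bec_LPCs, 45.7 ± 4.33 in Hep_LPCs and 89.5 ± 24.0 in NPC_LPCs. For the hydroxylases both Hep_LPCs libraries, at 42.6 and 48.7, lay below the lowest of the others, 72.5. Plod2 made up most of the hydroxylase sum, with 69.7% and 70.2% in Bec_LPCs, 73.6% and 49.5% in Hep_LPCs, and 67.7% and 69.8% in NPC_LPCs. The odd value is Hep_LPCs replicate 2, where Plod3 held 39.0% and the ratio of Plod2 to Plod3 was 1.27, against 2.98 to 3.29 in the other libraries.

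**Figure D2:**
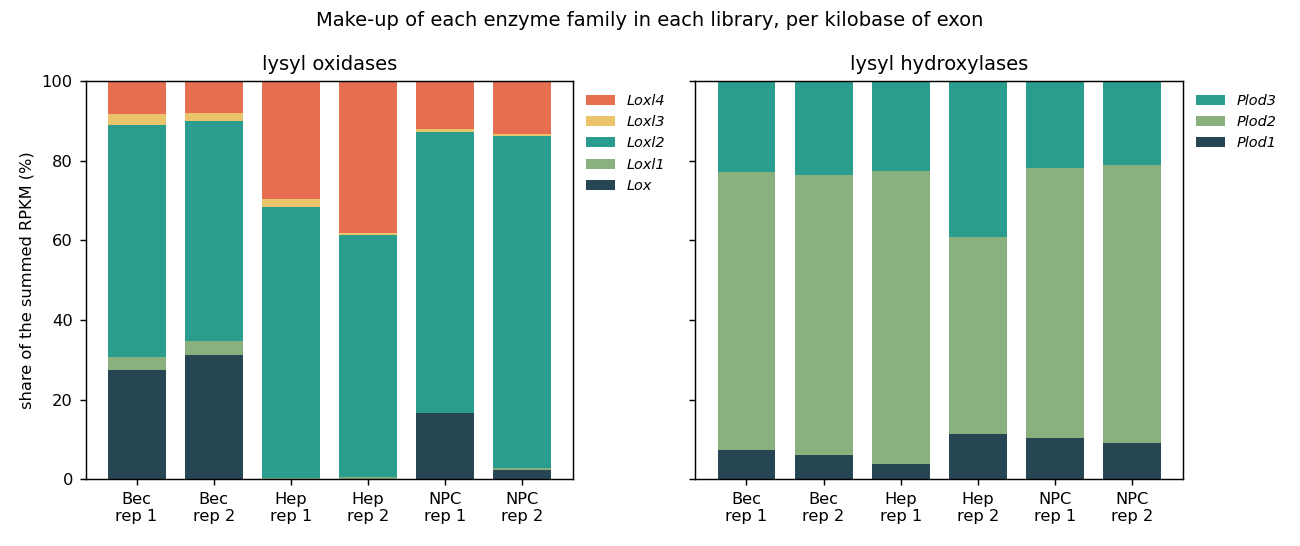
Share of the summed RPKM (%) that each lysyl oxidase (left) and each lysyl hydroxylase (right) held in each of the 6 libraries, stacked to the whole. Loxl2 is the largest oxidase segment in all 6 libraries, the Lox segment is absent in Hep_LPCs, and the Plod2 segment is smallest, at 49.5%, in Hep_LPCs replicate 2.

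Lox is the founding member of the oxidases and acts on fibrillar collagen and elastin. The gene (ENSMUSG00000024529) lies on chromosome 18 of mm10. It was at 96.1 and 126 CPM in Bec_LPCs, at 0.0586 and 0 CPM in Hep_LPCs, and at 90.5 and 13.4 CPM in NPC_LPCs. In reads these were 2253 and 2905 in Bec_LPCs, 1 and 0 in Hep_LPCs, and 1563 and 262 in NPC_LPCs. Both Hep_LPCs libraries were at or near 0, and the 3 groups did not overlap, although the NPC_LPCs replicates lay far from each other. Over both libraries Bec_LPCs had 5158 reads against 1 in Hep_LPCs, a ratio of levels of 3753 (95% counting interval 673 to 148251). NPC_LPCs had 1825 reads against the same 1 read, a ratio of 1677 (301 to 66283); both intervals cover counting error only.

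In edgeR's quasi-likelihood test with Benjamini-Hochberg adjustment over all genes, Lox was called higher in Bec_LPCs than in Hep_LPCs, with a log2 fold change of 11.58 ± 1.55 (SE, adjusted p = 0.00616); a fitted fold against 1 read depends on the prior count. Without Hep_LPCs replicate 2 the difference was 10.73 (adjusted p = 0.0356). In Hep_LPCs against NPC_LPCs it was -10.47 ± 1.56 and missed the threshold (edgeR adjusted p = 0.0660). The difference was -8.53 without NPC_LPCs replicate 1 and -11.26 without NPC_LPCs replicate 2, each a fit that drops 1 of the unlike replicates. It was -9.63 without Hep_LPCs replicate 2. Each of these fits leaves 1 library in a group. Against NPC_LPCs, Lox in Bec_LPCs was 1.09 ± 0.79 higher on the log2 scale and not called (edgeR adjusted p = 0.395). Without NPC_LPCs replicate 1, which held most of the group's Lox reads, that difference was 2.999 (adjusted p = 0.0269).

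Markers of mesenchymal and stellate cells, which are rich in Lox and Loxl1 in liver, had their highest sum in Bec_LPCs. The 15 listed markers summed to 174 to 203 CPM in Bec_LPCs, 10.7 to 16.2 CPM in Hep_LPCs and 6.31 to 19.3 CPM in NPC_LPCs. Acta2 and Col1a1 made up most of the Bec_LPCs sum, and not every marker followed it. Reln, Pdgfra and Cygb had their highest mean in Hep_LPCs, and Dcn in NPC_LPCs. Col1a1 and Col3a1 are also counted among the fibrillar collagens below. Of the 8 that could be tested, 4 were called higher in Bec_LPCs than in Hep_LPCs and 4 higher than in NPC_LPCs; without either Bec_LPCs replicate none was called. Acta2, the smooth muscle actin of myofibroblasts, had 78.4 and 94.95 CPM in Bec_LPCs, 0 reads in both Hep_LPCs libraries, and 0 and 2.35 CPM in NPC_LPCs. Pdgfrb, the receptor that marks pericytes and stellate cells, averaged 4.94 ± 0.659 CPM in Bec_LPCs, 0.029 ± 0.041 CPM in Hep_LPCs and 0.026 ± 0.036 CPM in NPC_LPCs (SD, n = 2 each), while Lrat and Lum had no read in any library. Their part in the Bec_LPCs levels of Lox and Loxl1 was not tested, and in bulk RNA fewer cells of a type and less RNA per cell cannot be told apart. In NPC_LPCs replicate 1, where Lox was at 90.5 CPM, 9 of the 15 markers had 0 reads, Acta2, Pdgfrb and Col3a1 among them. The other 6 were Col1a1 (50 reads), Dcn (26 reads, 1.51 CPM, its highest level in any library), Des (13), Reln (9), Pdgfra (7) and Tagln (4).

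Loxl1, the oxidase tied to elastic fibres, lies at chr9:58287738-58313186 on the minus strand of mm10. It was at 7.93 and 9.35 CPM in Bec_LPCs, 0.351 and 1.73 CPM in Hep_LPCs, and 0.174 and 2.04 CPM in NPC_LPCs. The Bec_LPCs libraries lay above all others, while the Hep_LPCs and NPC_LPCs libraries overlapped and rested on as few as 3 reads. Its log2 fold change was 3.04 ± 1.15 in Bec_LPCs against Hep_LPCs (edgeR adjusted p = 0.0888) and 2.94 ± 1.14 in Bec_LPCs against NPC_LPCs (edgeR adjusted p = 0.145), and neither was called. In Hep_LPCs against NPC_LPCs it was -0.13 ± 1.30 (edgeR adjusted p = 0.967), an interval too wide to place the groups. Elastin (Eln), the core protein of the fibres that Loxl1 cross-links, did not exceed 0.130 CPM in any library.

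Loxl2, an oxidase that acts on the type IV collagen of basement membranes, lies at chr14:69609068-69695834 on the plus strand. It was at 229 and 251 CPM in Bec_LPCs, 173 and 334 CPM in Hep_LPCs, and 435 and 560 CPM in NPC_LPCs. The NPC_LPCs libraries were above all the others, and the Bec_LPCs values lay between those of Hep_LPCs. The log2 fold change was -0.99 ± 0.38 in Hep_LPCs against NPC_LPCs (edgeR adjusted p = 0.203), -1.06 ± 0.33 in Bec_LPCs against NPC_LPCs (adjusted p = 0.0931) and -0.08 ± 0.33 in Bec_LPCs against Hep_LPCs (adjusted p = 0.859). The last changed sign, to 0.46, without Hep_LPCs replicate 2. The difference between Bec_LPCs and NPC_LPCs was called when only their 4 libraries were fitted (adjusted p = 0.0282) and without either Hep_LPCs replicate. Loxl2 alone among the 8 has a near-identical copy, Gm21451 (chr14:69390854-69480287), alike over a stretch of 2348 bases. The copy held 5 and 27 reads in Hep_LPCs and 23 and 46 in NPC_LPCs, at most 0.482% of the reads of Loxl2, and it has no row in the Bec_LPCs tables, so Loxl2 is uncertain in the comparisons with Bec_LPCs.

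Loxl3, an oxidase known in mice for its part in the palate and the spine, lies at chr6:83034173-83052562 on the plus strand and shares 11.6% of its exonic length with Htra2 on the opposite strand. It was at 9.68 and 7.62 CPM in Bec_LPCs, 4.16 and 2.38 CPM in Hep_LPCs, and 3.995 and 3.83 CPM in NPC_LPCs. Bec_LPCs were above the others in both libraries, and the Hep_LPCs values lay on either side of those of NPC_LPCs. Loxl3 was called higher in Bec_LPCs than in Hep_LPCs, with a log2 fold change of 1.39 ± 0.41 (edgeR adjusted p = 0.0479). The call was lost without Hep_LPCs replicate 2 (1.04, adjusted p = 0.0895), without either Bec_LPCs replicate (1.21 and 1.56, adjusted p = 0.309 and 0.201) and without either NPC_LPCs replicate (adjusted p = 0.0527 for each). Against NPC_LPCs, Bec_LPCs differed by 1.14 ± 0.41 (edgeR adjusted p = 0.125) and Hep_LPCs by -0.27 ± 0.59 (adjusted p = 0.817).

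Loxl4, which shares scavenger receptor domains with Loxl2 and Loxl3, lies at chr19:42593982-42612813 on the minus strand. It was at 25.1 and 28.7 CPM in Bec_LPCs, 58.6 and 163 CPM in Hep_LPCs, and 58.5 and 69.3 CPM in NPC_LPCs. Both Bec_LPCs libraries lay below all the others; Hep_LPCs replicate 1 was level with NPC_LPCs, and the highest value was that of Hep_LPCs replicate 2. It was the only member called lower in Bec_LPCs than in Hep_LPCs, with a log2 fold change of -2.05 ± 0.47 (edgeR adjusted p = 0.0238). Without Hep_LPCs replicate 2 the call held at a smaller size (-1.13, adjusted p = 0.0188), and without either Bec_LPCs replicate it was lost (-1.96 and -2.15, adjusted p = 0.135 and 0.116). Against NPC_LPCs, Bec_LPCs differed by -1.25 ± 0.46 (edgeR adjusted p = 0.131), and this was called without either Hep_LPCs replicate (adjusted p = 0.0188 and 0.0203). Hep_LPCs against NPC_LPCs gave 0.78 ± 0.48 (edgeR adjusted p = 0.394), and -0.14 without Hep_LPCs replicate 2. Loxl2 and Loxl4 both had their lowest mean in Bec_LPCs and differed in which of the other groups was highest. The ratio of Loxl2 to Loxl4 in RPKM was 7.11 and 6.82 in Bec_LPCs, 2.30 and 1.59 in Hep_LPCs, and 5.80 and 6.30 in NPC_LPCs.

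Upstream sequence is shown for Loxl4, called lower in Bec_LPCs than in Hep_LPCs, and for Plod3, whose level varied least, because the reference table of promoters holds 3 of the 8 genes, these and Plod1. The 250 bases before the annotated start are from RefSeq on GRCm38.p6, at chr19:42612807-42613056 on the minus strand for Loxl4 and chr5:136986769-136987018 on the plus strand for Plod3. Capitals mark the core of the hypoxia response element, ACGTG or GCGTG, searched on both strands.
Loxl4: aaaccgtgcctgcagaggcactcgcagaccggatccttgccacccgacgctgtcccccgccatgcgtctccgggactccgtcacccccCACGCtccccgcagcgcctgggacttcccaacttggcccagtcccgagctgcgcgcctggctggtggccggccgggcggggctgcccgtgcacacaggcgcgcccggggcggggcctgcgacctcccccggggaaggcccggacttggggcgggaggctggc
Plod3: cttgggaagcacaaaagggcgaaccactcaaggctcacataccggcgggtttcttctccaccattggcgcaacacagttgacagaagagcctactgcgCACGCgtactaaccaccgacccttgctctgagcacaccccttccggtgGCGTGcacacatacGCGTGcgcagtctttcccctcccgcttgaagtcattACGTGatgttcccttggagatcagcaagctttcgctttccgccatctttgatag
The Loxl4 window holds 1 core, 162 bases before the start, and the Plod3 window holds 4, at 152, 104, 90 and 54 bases; no match overlaps another. Plod1 has 1, at 20 bases. Of 27025 promoter windows of the same length 38.6% hold at least 1 core (16.57% ACGTG and 28.21% GCGTG). Both cores contain the letters CG, which occur 27 times in the Loxl4 window and 17 times in the Plod3 window. The median over the 27025 windows is 6, so the share is not matched to windows this rich in CG. A match is a description of these letters, not of a site in use.

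Plod1, the hydroxylase of lysines in the helical part of collagen, lies at chr4:147909753-147936767 on the minus strand. It was at 38.4 and 34.1 CPM in Bec_LPCs, 12.4 and 33.2 CPM in Hep_LPCs, and 51.3 and 65.3 CPM in NPC_LPCs. No pair of groups overlapped, but Hep_LPCs replicate 2 came within 1 CPM of the lower Bec_LPCs library. The log2 fold change was -1.38 ± 0.49 in Hep_LPCs against NPC_LPCs (edgeR adjusted p = 0.187), -0.69 ± 0.45 in Bec_LPCs against NPC_LPCs (adjusted p = 0.338) and 0.66 ± 0.45 in Bec_LPCs against Hep_LPCs (adjusted p = 0.289). The last was 1.54 and called without Hep_LPCs replicate 2 (adjusted p = 0.0177).

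Plod2, the hydroxylase of the telopeptide lysines, whose products give the cross-links found in scar collagen, lies at chr9:92542223-92608428 on the plus strand. It was at 284 and 306 CPM in Bec_LPCs, 193 and 114 CPM in Hep_LPCs, and 265 and 401 CPM in NPC_LPCs. Both Hep_LPCs libraries were below all the others, and the Bec_LPCs values lay within the range of NPC_LPCs. Its log2 fold change was -1.14 ± 0.37 in Hep_LPCs against NPC_LPCs (edgeR adjusted p = 0.164), 0.93 ± 0.32 in Bec_LPCs against Hep_LPCs (adjusted p = 0.0683) and -0.18 ± 0.32 in Bec_LPCs against NPC_LPCs (adjusted p = 0.736), none of them called. Without Hep_LPCs replicate 2 the first 2 were -0.80 and 0.60, and without replicate 1 the difference between Bec_LPCs and Hep_LPCs was 1.37 and called (adjusted p = 0.0410).

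Plod3, which also transfers sugars to hydroxylysine, lies at chr5:136987019-136996648 on the plus strand, and 11.7% of its exonic length overlaps Znhit1 on the other strand. It was at 77.8 and 86.2 CPM in Bec_LPCs, 49.97 and 75.2 CPM in Hep_LPCs, and 71.7 and 102 CPM in NPC_LPCs. The NPC_LPCs range took in both Bec_LPCs libraries and 1 of Hep_LPCs. The log2 fold change was -0.49 ± 0.32 in Hep_LPCs against NPC_LPCs (edgeR adjusted p = 0.411), -0.09 ± 0.27 in Bec_LPCs against NPC_LPCs (adjusted p = 0.847) and 0.38 ± 0.27 in Bec_LPCs against Hep_LPCs (adjusted p = 0.310).

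Counted over the family, the 3 comparisons differed in how much of the whole transcriptome was called, and they share libraries, so their counts are not independent. Their fits also differed, with 4 libraries for Hep_LPCs against NPC_LPCs and 6 for the Bec_LPCs comparisons. In a fit of all 6 libraries Hep_LPCs against NPC_LPCs had 1251 of 12727 genes called, and 1 member, Lox (edgeR adjusted p = 0.0237). In Hep_LPCs against NPC_LPCs, the pair named in the growth protocol, 0 of 8 members were called by edgeR, beside 0.781% of 12035 genes tested (0.349% higher, 0.432% lower). At an unadjusted p under 0.05 there were 4 members, all lower in Hep_LPCs (Lox, Loxl2, Plod1 and Plod2), beside 22.1% of all genes. DESeq2 called 2 members, Lox and Plod2, beside 1482 of 12035 genes. In Bec_LPCs against NPC_LPCs, 0 of 8 were called by edgeR, beside 11.3% of 12727 genes (4.87% higher, 6.4% lower). Here 2 members were higher (Loxl1, Loxl3) and 2 lower (Loxl2, Loxl4) at an unadjusted p under 0.05, beside 31.5% of all genes. DESeq2 called 3 members (Loxl1, Loxl2 and Loxl4), beside 2859 of 12727 genes. In Bec_LPCs against Hep_LPCs, 2 members were called higher (Lox, Loxl3) and 1 lower (Loxl4), 3 of 8 beside 33.4% of all genes (16.2% higher, 17.2% lower), so the share called was near that of all genes. Without Bec_LPCs replicate 1 or 2 the Lox difference was 11.75 or 11.37. Far fewer genes of the whole transcriptome were called in either Bec_LPCs comparison when a Bec_LPCs replicate was left out. Calls lost in those fits are therefore not particular to the members or to the lists of genes. Without Hep_LPCs replicate 2, the members not yet given so were at 4.58 (Loxl1) and 0.70 (Plod3) in Bec_LPCs against Hep_LPCs, and at -1.67 (Loxl1), -1.54 (Loxl2), 0.073 (Loxl3), -2.26 (Plod1) and -0.82 (Plod3) in Hep_LPCs against NPC_LPCs, with none of these called.

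The median log2 fold change of the 8 members was -0.74 in Hep_LPCs against NPC_LPCs, -0.13 in Bec_LPCs against NPC_LPCs and 0.80 in Bec_LPCs against Hep_LPCs. Over all genes tested it was -0.0035, 0.010 and 0.032 in the same comparisons. The plot of fitted fold changes shows that Lox sets the scale and that Plod2 and Plod3 lie close to 0 in Bec_LPCs against NPC_LPCs.

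**Figure D3:**
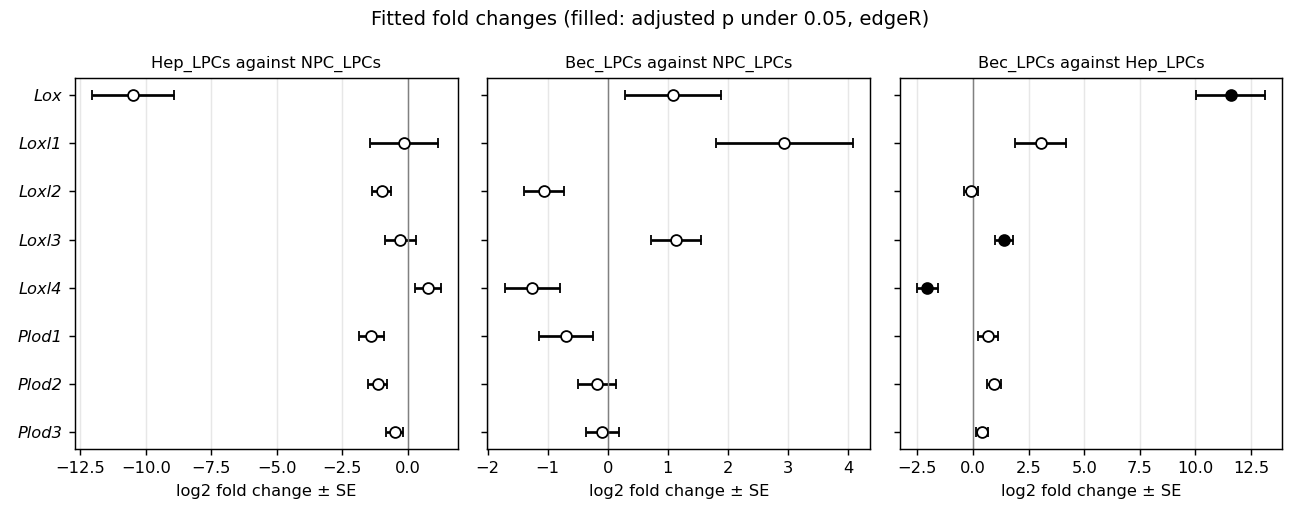
Log2 fold change ± SE (edgeR) of each of the 8 genes in Hep_LPCs against NPC_LPCs, Bec_LPCs against NPC_LPCs and Bec_LPCs against Hep_LPCs, where a positive value is higher in the group named first; filled points have an adjusted p under 0.05. Filled points appear in the last panel only, for Lox (11.58), Loxl3 (1.39) and Loxl4 (-2.05).

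The substrates of these enzymes were read beside them. Fibrillar collagens, on which Lox and the hydroxylases act, had 6 of 10 tested genes higher in Bec_LPCs than in Hep_LPCs and none lower, with a median log2 fold change of 3.48, or 3.25 with genes at 0 reads set to their bound. Col27a1 averaged 161 ± 7.44 CPM in Bec_LPCs and 34.0 ± 4.23 CPM in Hep_LPCs (SD, n = 2 each; log2 fold change 2.23 ± 0.18, edgeR adjusted p = 0.00183). Col1a1, a chain of type I collagen, averaged 71.0 ± 9.33 CPM in Bec_LPCs and 3.09 ± 1.68 CPM in Hep_LPCs (4.51 ± 0.77, edgeR adjusted p = 0.0114). The other named calls were Col5a2, at 28.8 CPM against 0.207 CPM, and Col5a3, at 2.92 CPM against 0 reads. Against NPC_LPCs 3 of 10 were higher in Bec_LPCs (Col1a1, Col5a2 and Col11a1; median 2.97), and in Hep_LPCs against NPC_LPCs 1 of 6 was called, Col27a1, at 34.0 CPM against 114 CPM (-1.76 ± 0.24, edgeR adjusted p = 0.0485; median -0.67). For Bec_LPCs against Hep_LPCs the count of 6 was 1 without either Bec_LPCs replicate, 3 without Hep_LPCs replicate 1 and 4 without Hep_LPCs replicate 2. The count of 3 in Bec_LPCs against NPC_LPCs was 0 without either Bec_LPCs replicate and 2 without either Hep_LPCs replicate, with 4 higher and 1 lower without NPC_LPCs replicate 2. Col27a1 was not called in Hep_LPCs against NPC_LPCs without either Hep_LPCs replicate or without NPC_LPCs replicate 1.

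Type IV collagens of the basement membrane, on which Loxl2 acts, had 3 of 6 genes higher in Bec_LPCs than in Hep_LPCs (median 1.94), 0 of 6 called in Bec_LPCs against NPC_LPCs (median 0.92) and 0 of 4 in Hep_LPCs against NPC_LPCs (median -1.73). Col4a1 averaged 1325 ± 69.5 CPM in Bec_LPCs, 381 ± 131 CPM in Hep_LPCs and 1609 ± 790.2 CPM in NPC_LPCs. Its log2 fold change in Bec_LPCs against Hep_LPCs was 1.79 ± 0.41 (edgeR adjusted p = 0.0232), and Col4a2 and Col4a5 were called as well. Loxl2, the enzyme, did not share this order, since its Bec_LPCs values lay between those of Hep_LPCs. The count of 3 was 0 without either Bec_LPCs replicate, 0 without Hep_LPCs replicate 1, 2 without Hep_LPCs replicate 2 and 5 without either NPC_LPCs replicate. Elastic fibre genes had 2 of 5 higher in Bec_LPCs than in Hep_LPCs (median 2.75), Fbln5 and Ltbp4, 1 of 5 higher than in NPC_LPCs (median 1.91), and 0 of 4 called in Hep_LPCs against NPC_LPCs (median -0.68). Without either Bec_LPCs replicate both counts were 0; without either NPC_LPCs replicate the 2 were 3 and the 1 was 0.

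**Figure D4:**
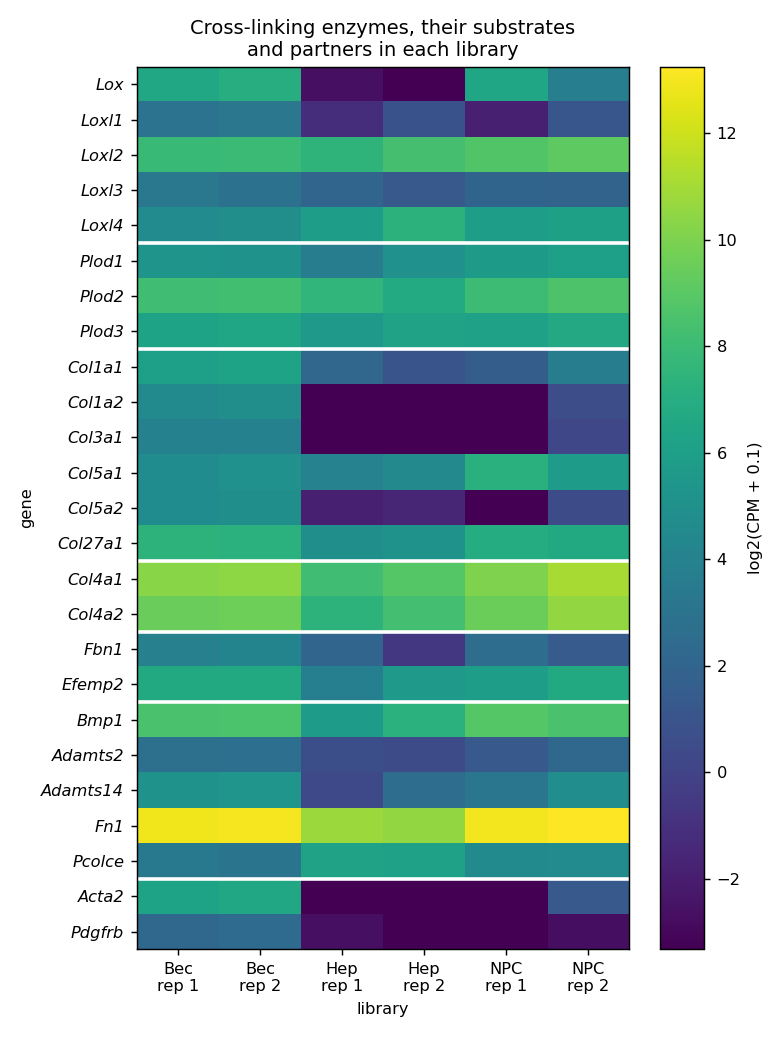
Log2(CPM + 0.1) of the 8 cross-linking enzymes (top) and of substrates, processing enzymes and 2 mesenchymal markers in the 6 libraries; white lines part the groups of genes. The dark cells of Lox in Hep_LPCs lie in the same columns as those of Col1a2, Col3a1 and Acta2, but in NPC_LPCs replicate 1 Lox is bright while these are dark.

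Genes that process procollagen and the oxidases themselves were followed too. Bmp1, the protease that frees active Lox from its propeptide, was at 363 and 377 CPM in Bec_LPCs, 56.0 and 155 CPM in Hep_LPCs, and 471 and 361 CPM in NPC_LPCs. Both Hep_LPCs libraries, the ones without Lox, were the lowest, and Bmp1 was called in Bec_LPCs against Hep_LPCs (log2 fold change 1.80, edgeR adjusted p = 0.0334); it is named here for its link to Lox, after its values were seen. Fn1, fibronectin, a partner of Lox in the matrix, averaged 7900 ± 524 CPM in Bec_LPCs, 1607 ± 125 CPM in Hep_LPCs and 8916 ± 1150 CPM in NPC_LPCs. It was called in Hep_LPCs against NPC_LPCs (-2.49 ± 0.29, edgeR adjusted p = 0.0388; not called without either Hep_LPCs replicate) and in Bec_LPCs against Hep_LPCs (2.29 ± 0.20, edgeR adjusted p = 0.00218). Pcolce, an enhancer of procollagen cleavage, went the other way, with 9.31 ± 1.60 CPM in Bec_LPCs, 73.4 ± 0.960 CPM in Hep_LPCs and 24.0 ± 1.37 CPM in NPC_LPCs, and was called lower in Bec_LPCs than in either. The list as a whole had 6 higher and 1 lower of 9 in Bec_LPCs against Hep_LPCs (median 2.23, or 1.80 with genes at 0 reads at their bound; 1 and 1 without either Bec_LPCs replicate, 4 and 1 without Hep_LPCs replicate 2, and 3 and 1 without Hep_LPCs replicate 1), 1 lower of 9 in Bec_LPCs against NPC_LPCs (median 0.90; 0 without either Bec_LPCs replicate) and 1 lower of 6 in Hep_LPCs against NPC_LPCs (median -1.66).

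Other enzymes and chaperones that modify collagen in the endoplasmic reticulum, the neighbours of the hydroxylases, had 1 higher (Fkbp14) and 1 lower (Ppib) of 16 in Bec_LPCs against Hep_LPCs (median 0.99), 0 of 16 called in Bec_LPCs against NPC_LPCs (median 0.13) and 0 of 14 in Hep_LPCs against NPC_LPCs (median -0.22). No gene of this list was called in either Bec_LPCs comparison without either Bec_LPCs replicate. Without Hep_LPCs replicate 2 the counts were 4 and 1 in Bec_LPCs against Hep_LPCs, and 3 and 2 in Bec_LPCs against NPC_LPCs. P4hb, a subunit of the collagen prolyl hydroxylase, varied little, with 804 and 798 CPM in Bec_LPCs, 1089 and 1126 CPM in Hep_LPCs, and 1105 and 1001 CPM in NPC_LPCs. Serpinh1, the collagen chaperone, split its replicates: it was at 616 and 604 CPM in Bec_LPCs, 75.7 and 511 CPM in Hep_LPCs, and 0.463 and 316 CPM in NPC_LPCs. No hydroxylase showed a split of that size within a group.

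Copper carriers, which load the oxidases, had 2 of 5 higher in Bec_LPCs than in Hep_LPCs (Slc31a2 and Atox1; median 0.65), 1 higher (Atox1) and 1 lower (Atp7a) of 5 in Bec_LPCs against NPC_LPCs (median -0.27) and 0 of 5 called in Hep_LPCs against NPC_LPCs (median -0.94). Without either Bec_LPCs replicate none was called in either comparison. The 2 in Bec_LPCs against Hep_LPCs were 3 without Hep_LPCs replicate 2, and in Bec_LPCs against NPC_LPCs 1 higher and none lower was called without either Hep_LPCs replicate, none without NPC_LPCs replicate 1, and 1 lower alone without NPC_LPCs replicate 2. Atp7a, the pump that delivers copper to secreted enzymes, averaged 59.6 ± 3.70 CPM in Bec_LPCs, 53.8 ± 1.57 CPM in Hep_LPCs and 112 ± 29.0 CPM in NPC_LPCs, with its highest mean in the same group as Loxl2. Neither of the 2 ascorbate transporters, which supply the cofactor of the hydroxylases, was called in any comparison. Genes of the hypoxia-inducible factor and its targets, a pathway known to raise Lox, Loxl2, Plod1 and Plod2, had 4 of 13 lower in Bec_LPCs than in NPC_LPCs (Egln3, Pdk1, Bnip3 and Ndrg1; median -0.85), 1 higher and 3 lower of 13 in Bec_LPCs against Hep_LPCs (median -0.87) and 0 of 12 called in Hep_LPCs against NPC_LPCs (median -0.16). Egln3, an oxygen sensor and itself a target, averaged 14.6 ± 2.40 CPM in Bec_LPCs, 112 ± 30.8 CPM in Hep_LPCs and 53.9 ± 3.63 CPM in NPC_LPCs. Of the 8 members Loxl4 had this order of means, and a link was not tested. In the list Ndrg1 and Epas1 shared the order. More of its genes had their highest mean in NPC_LPCs, among them Hif1a, Bnip3, Pdk1, Slc2a1 and Egln1. So did Vegfa and Ankrd37, by a small margin over Hep_LPCs. Loxl2, Plod1 and Plod2 were also highest in NPC_LPCs, and a link was not tested for them either. Car9, the 1 called higher in Bec_LPCs than in Hep_LPCs, averaged 3.26 CPM against 0.089 CPM. Without NPC_LPCs replicate 1 the count of 4 in Bec_LPCs against NPC_LPCs was 1, and without either Bec_LPCs replicate it was 0. In Bec_LPCs against Hep_LPCs 2 lower and none higher were called without either Bec_LPCs replicate, and the same numbers without Hep_LPCs replicate 1.

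By the smallest root mean square difference of centred log2 CPM over the 6 libraries, among 9884 or 9885 candidate genes, the genes whose pattern lay nearest to Lox were Ulbp1 (0.50), Piezo2 (1.33) and Eya4 (1.59). Ulbp1 was at 97.4 and 99.2 CPM in Bec_LPCs, 0.176 and 0.119 CPM in Hep_LPCs, and 90.4 and 19.1 CPM in NPC_LPCs, so it also split the NPC_LPCs replicates as Lox did. Nearest to Loxl1 were Trpv4 (0.62), Adgrv1 (0.66) and Sytl1 (0.70). Nearest to Loxl4 were Srd5a1 (0.12), Bcar3 (0.22) and Cfl1 (0.26), and nearest to Plod1 were Pmepa1 (0.16), Nexmif (0.17) and Ttc12 (0.18). The 6 libraries in 3 groups hold few independent points, and such likeness describes these libraries.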

How the data were processed

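Polyadenylated RNA of 6 LPC libraries was sequenced in paired-end mode with a stranded kit (labels' protocols). The build was mm10, and DESeq, HTSeq, Cufflinks, HISAT2 and Trimmomatic are named, per the submitters' processing notes; for their versions, settings and strand rule the sources used here give nothing. Each deposited table holds the whole-number counts of 1 library by gene symbol; the Hep_LPCs and NPC_LPCs tables also hold FPKM, scaled by the authors for length and depth, which served in 1 alternative. The Bec_LPCs tables hold 14 unnamed rows (44 and 41 reads, 0.000191% and 0.000181% of counts), left out. Older symbols were updated (12 in the Bec_LPCs tables, 458 in the others). Coordinates and exon lengths are from GENCODE M21; near-identical copies (95% identity over 200 bases) were sought with minimap2 2.31-r1302.

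Libraries were grouped by title. Genes passed filterByExpr, were scaled by TMM and tested with edgeR 4.0.16 (quasi-likelihood, robust; R 4.3.3) with Benjamini-Hochberg adjustment over all genes, called at an adjusted p under 0.05. Hep_LPCs against NPC_LPCs used those 4 libraries, and the Bec_LPCs comparisons all 6; levels use the TMM scale of all 6. The SE is the log2 fold change over the square root of F. Alternatives were other scalings and filters, DESeq2 1.42.0, limma 3.58.1, a replicate block, other library sets, and leaving out each library.

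All 8 members are named. Of each of 14 lists (fibrillar and basement membrane collagens, elastic fibre genes, collagen modifiers, processing genes, copper carriers, ascorbate transporters, hypoxia targets, and mesenchymal, mesothelial, endothelial, macrophage, biliary and hepatocyte markers) up to 4 called genes by smallest adjusted p, else the 2 with the highest mean, could be named. For members with a log2 CPM range over 2, the 3 genes of nearest pattern were named, among protein-coding genes with at least 5 CPM and at most 25% exonic overlap. Members and lists were chosen with earlier results of these data known.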

Additional observations from a re-analysis of the deposited data

How the results depend on the processing

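Calls depended on the test and the libraries. For Bec_LPCs against Hep_LPCs edgeR called 4254 genes, DESeq2 5346, and edgeR on the 4 libraries of the pair 4962. The edgeR count of members called in Hep_LPCs against NPC_LPCs, 0, was 2 by DESeq2, 1 with the replicate block, 1 in a fit of all 6 libraries, and 0 to 1 when leaving out each library; over all genes 94 calls became 428 without a filter, 168 with at least 10 CPM in 2 libraries, 1482 by DESeq2, 5 by limma-voom, 1251 in a fit of all 6 libraries, 163 by limma on log2(FPKM + 1), and 0 to 351 when leaving out each library. In Bec_LPCs against NPC_LPCs the 0 members were 3 by DESeq2, 2 in the 4 libraries of the pair, and 0 to 2 when leaving out each library, and the 1434 genes were 2859 by DESeq2, 759 with the replicate block, 2470 in the 4 libraries, and 104 to 2329 when leaving out each library. In Bec_LPCs against Hep_LPCs the 3 members were 5 by DESeq2 (adding Loxl1 and Plod2) and 1 to 4 when leaving out each library, and the 4254 genes were 484 to 4867. Lox was called there in 14 of 15 alternatives (the exception is limma-voom, adjusted p = 0.0503), Loxl4 in 13 of 15 and Loxl3 in 5 of the 14 that tested it. Lox in Hep_LPCs against NPC_LPCs was called in 5 of 14 (adjusted p from 7.19e-09 to 0.266).

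Some signs changed, none of them for a called difference. In Hep_LPCs against NPC_LPCs, Loxl1 was 0.27 by limma-voom, 0.22 with the replicate block, and -1.67 to 2.53 when leaving out each library; Loxl3 was -0.72 to 0.073 and Loxl4 -0.14 to 1.35 when leaving out each library. In Bec_LPCs against NPC_LPCs, Plod3 was 0.073 with total counts alone and -0.37 to 0.18 when leaving out each library, and Plod2 was -0.49 to 0.15. In Bec_LPCs against Hep_LPCs, Loxl2 was 0.087 with total counts alone and -0.48 to 0.46 when leaving out each library. Scaling by total counts alone gave a median of all genes of 0.17 in place of 0.010 in Bec_LPCs against NPC_LPCs and 0.21 in place of 0.032 in Bec_LPCs against Hep_LPCs, and a share of higher calls of 61.2% in place of 43.2% and of 60.9% in place of 48.4%. The cause of these shifts was not tested. The counts per list moved by over 1.5 times in 39 of 196 alternatives in Hep_LPCs against NPC_LPCs, 60 of 210 in Bec_LPCs against NPC_LPCs and 51 of 210 in Bec_LPCs against Hep_LPCs; this set of alternatives was chosen after seeing the data. The labels do not say whether libraries of equal replicate number are paired. Their deviations correlated at -0.073 (Bec_LPCs and Hep_LPCs), 0.160 (Bec_LPCs and NPC_LPCs) and -0.046 (Hep_LPCs and NPC_LPCs). Low values of this kind cannot decide it, since a small effect of a shared preparation could be hidden by larger differences between replicates. Loxl1 rested on 3 and 40 reads in NPC_LPCs and 6 and 29 in Hep_LPCs; in Bec_LPCs against Hep_LPCs it was called in 6 of 14 alternatives, and in Bec_LPCs against NPC_LPCs in 1 of 14 (DESeq2, adjusted p = 0.0411). When a library is left out, the lone library of its group is assumed to vary like the other groups.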

Other observations

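The lists of other cell types, apart from the mesenchymal one, gave these counts beside the 8 members. Biliary markers had 3 higher and 1 lower of 8 in Bec_LPCs against NPC_LPCs, 2 higher of 8 in Bec_LPCs against Hep_LPCs and 0 of 7 called in Hep_LPCs against NPC_LPCs; Krt7, a duct keratin, averaged 335 ± 47.1 CPM in Bec_LPCs and 9.64 ± 11.5 CPM in NPC_LPCs (SD, n = 2 each). Hepatocyte markers had 2 higher of 5 in Hep_LPCs against NPC_LPCs, 2 higher and 1 lower of 6 in Bec_LPCs against NPC_LPCs and 3 lower of 6 in Bec_LPCs against Hep_LPCs. Hnf4a, the hepatocyte transcription factor, averaged 116 ± 15.6 CPM in Bec_LPCs, 256 ± 10.97 CPM in Hep_LPCs and 40.2 ± 15.9 CPM in NPC_LPCs. Mesothelial markers had no call in any comparison, and Msln, mesothelin, was at 571 and 533 CPM in Bec_LPCs, 209 and 829 CPM in Hep_LPCs, and 605 and 238 CPM in NPC_LPCs. Endothelial markers summed to 2.43 to 7.85 CPM in any library, with 1 call (Kdr, lower in Bec_LPCs than in Hep_LPCs). Macrophage markers had 1 higher of 5 in each Bec_LPCs comparison, Lyz2, and 0 of 3 called in Hep_LPCs against NPC_LPCs; the medians were -0.33 in Bec_LPCs against Hep_LPCs, 0.27 in Bec_LPCs against NPC_LPCs and -0.70 in Hep_LPCs against NPC_LPCs. Cd68 ran the other way without a call, with 9.21 and 8.74 CPM in Bec_LPCs, 22.8 and 14.0 CPM in Hep_LPCs, and 84.1 and 21.0 CPM in NPC_LPCs. Without either Bec_LPCs replicate the biliary and hepatocyte counts in Bec_LPCs against NPC_LPCs, the endothelial count in Bec_LPCs against Hep_LPCs and both macrophage counts were 0, and the 3 lower hepatocyte markers in Bec_LPCs against Hep_LPCs were 1. Both macrophage counts, and the 2 hepatocyte markers higher in Hep_LPCs than in NPC_LPCs, were also 0 without either Hep_LPCs replicate.

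In NPC_LPCs the deposited FPKM of Lox were 20.7 and 3.17. They come from the same libraries as the counts, so the same split of the replicates is no separate evidence. In Hep_LPCs the deposited FPKM of Lox were 0.0146 and 0. Over the same 4 libraries the deposited FPKM of Loxl4 were 8.99 and 24.998 in Hep_LPCs and 8.54 and 10.4 in NPC_LPCs, and those of Plod2 were 30.7 and 18.1 in Hep_LPCs and 42.5 and 72.0 in NPC_LPCs.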
